A study of Mus musculus with 12 samples.

Results

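The genes described here were the metallopeptidases of the matrix metallopeptidase (Mmp), disintegrin-type (Adam) and thrombospondin-repeat (Adamts) families together with the tissue inhibitors of metallopeptidases (Timp). They were chosen by symbol alone, as Mmp, Adam or Adamts followed by a number, or Timp1 to Timp4, and the rule itself uses no measured value. The rule found 79 of the 46983 genes in the table, namely 23 Mmp, 33 Adam, 19 Adamts and 4 Timp genes. Their RNA was measured in C2C12, a mouse myoblast line that fuses into myotubes when it differentiates, in 4 groups of 3 libraries. WT_0d and WT_5d were wild-type C2C12 cells titled with the empty PiggyBac vector PB-IP, either undifferentiated (0d) or differentiated for 5 days (5d). PPARγ/+_0d and PPARγ/+_5d were C2C12 cells on the same days that had received the PPARγ coding sequence in PB-IP together with transposase. The PPARγ/+ cells were selected with puromycin, and the number of clones behind them was not given in the sources used here. The design text speaks of inducible cells with uninduced controls, and no inducing agent was named.

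Metallopeptidases of these families cut proteins with a zinc ion held by histidines of the catalytic site. Most Mmps degrade collagens and other matrix proteins outside the cell, most active Adams release growth factors and receptors from the cell surface, and the Adamts enzymes cut proteoglycans, procollagen propeptides and microfibril proteins. Timps block them by occupying the active site, and Timp2 also takes part in the activation of pro-Mmp2 by Mmp14 on the cell surface. In muscle, matrix turnover by these enzymes accompanies myoblast migration, fusion and repair.

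The catalytic site is shown because it is what most of these genes share beside their names. The coding sequences of the longest coding transcripts (GENCODE M21, genome GRCm38) were searched for the codons of the zinc site, which are histidine and glutamate, then histidine 3 codons on, then glycine or asparagine, then histidine. All 23 Mmp genes held the site, as did 20 of the 33 Adam genes, 18 of the 19 Adamts genes and none of the 4 Timp genes. In the sequences below the capitals mark the codons of histidine, glutamate, histidine, glycine or asparagine, and histidine, and each is followed in the text by its place.
Mmp2: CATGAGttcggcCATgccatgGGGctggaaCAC
Mmp14: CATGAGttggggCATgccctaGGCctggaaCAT
Mmp10: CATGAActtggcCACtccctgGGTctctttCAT
Mmp7: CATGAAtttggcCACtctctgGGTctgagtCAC
Adam10: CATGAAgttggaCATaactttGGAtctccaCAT
Adam17: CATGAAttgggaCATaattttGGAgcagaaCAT
Adamts4: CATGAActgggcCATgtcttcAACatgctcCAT
Adamts16: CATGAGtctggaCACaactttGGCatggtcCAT
The *Mmp2* site lay in exon 8 of 13 (chr8:92839279-92839311), the *Mmp14* site in exon 5 of 10 (chr14:54437627-54437659), the *Mmp10* site in exon 5 of 10 (chr9:7504858-7504890) and the *Mmp7* site in exon 5 of 6 (chr9:7697614-7697646). The *Adam17* site lay in exon 12 of 20 (chr12:21336732-21336764), whereas the *Adam10* site was split between exons 9 and 10 of 16, the *Adamts4* site between exons 3 and 4 of 9, and the *Adamts16* site between exons 8 and 9 of 23. *Adamts4* belonged to the 5 Adamts genes with an asparagine codon at the eighth position, while 13 had glycine. The cysteine switch is the propeptide cysteine that holds an Mmp inactive. Its codons were searched strictly as proline, arginine, cysteine, glycine, any codon, proline and aspartate, and were found in 17 of the 23 Mmp genes. A variant of the switch in the other Mmp genes would be missed by this search. Of the 9 Adam genes with a mean of at least 1 FPKM (fragments scaled to transcript length and to the mapped fragments of the library) in some group, 8 held the zinc site, and *Adam5* did not. Of the 24 Adam genes below that level, 12 held it.

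The libraries had 15557950 to 22013354 fragments on genes. Replicates correlated at r = 0.961 to 0.982 across genes, with the lowest values among the WT_5d libraries. WT_5d replicate 3 had 87.9 FPKM of *Myh3*, embryonic myosin of myotubes, where the other two had 307 and 527. The 7 muscle markers summed to 151–288 FPKM in WT_0d, 372–1529 in WT_5d, 62.9–90.9 in PPARγ/+_0d and 378–450 in PPARγ/+_5d, and 2 of the 7 (*Cdh15* and *Myf5*) were called lower in PPARγ/+_0d than in WT_0d. The 5 adipocyte markers summed to at most 0.0561 FPKM in WT cells, 1.31–3.05 in PPARγ/+_0d and 9.14–56.9 in PPARγ/+_5d, with *Lep* at 0 in all libraries. The 5 leukocyte markers summed to 2.07–5.13 FPKM in all libraries, nearly all of it *Cd68*, while *Ptprc*, *Adgre1* and *Itgam* were at or near 0, and the 3 endothelial markers summed to at most 0.185. *Pparg*, where reads of the construct and of the cell's own gene cannot be told apart, averaged 6.53 and 3.75 FPKM in WT cells and 39.6 and 58.9 in PPARγ/+ cells on 0d and 5d. The part of these differences in cell state in the results was not tested, and in such bulk RNA fewer cells of a type and less RNA per cell cannot be told apart. The study describes the libraries of a group as biological replicates, the labels do not say how the cultures were separated, and p-values measure the spread between these libraries.

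Most of the family was silent or low in these cells, and so was much of the whole table. There, 27138 of the 46983 genes were above 0 in some library and 18023 were tested. Of the 79 genes, 15 were at 0 in all 12 libraries, namely *Mmp1a*, *Mmp1b*, *Adamts19* and 12 Adam genes, 9 of which lie on chromosome 8. A further 19 were detected but did not reach the level for testing, and their highest group mean was 0.116 FPKM. The 45 genes tested comprised 15 Mmp, 14 Adam, 13 Adamts and 3 Timp genes. A mean of at least 10 FPKM in some group was reached by 18 genes, and at least 100 FPKM by *Mmp2*, *Mmp14*, *Timp1* and *Timp2*.

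**Figure D1:**
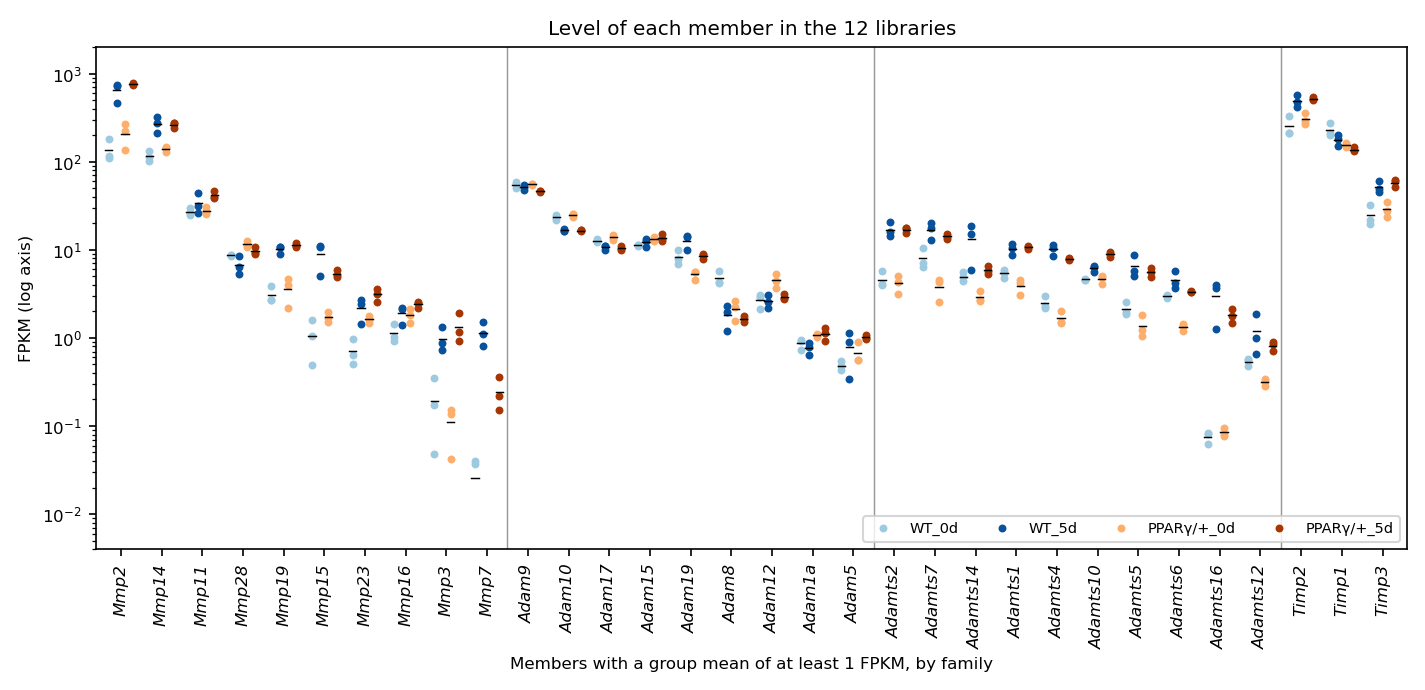
FPKM on a log axis of the 32 members with a mean of at least 1 FPKM in some group, ordered by family and level; points are libraries, short lines group means, and libraries at 0 are not drawn. *Mmp2*, *Mmp14*, *Timp1* and *Timp2* stood above 100 FPKM, and the Adam genes drawn other than *Adam8* differed by less than 2-fold between 0d and 5d.

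The first question of the design is how the genes changed during differentiation in each line. In WT cells, 19 of the 45 tested genes were called from 0d to 5d (17 higher and 2 lower) at an unadjusted p of at most 0.05 and a change of at least 2-fold, against 16.5% of all genes tested (8.94% higher and 7.53% lower). In PPARγ/+ cells 19 were called, all of them higher, against 15.2% of all genes (9.11% higher and 6.06% lower). The median log2 difference of the members tested was 0.71 in WT and 0.91 in PPARγ/+ cells, where all genes had −0.08 and −0.10. Scaling the libraries to a common median ratio moved the median of all genes to 0.03 and 0.02. Thus 13 genes were called higher in both lines, namely *Mmp2*, *Mmp3*, *Mmp7*, *Mmp9*, *Mmp15*, *Mmp19*, *Adamts2*, *Adamts4*, *Adamts5*, *Adamts7*, *Adamts15*, *Adamts16* and *Timp3*. The share of all genes called higher in both lines was not counted, so these 13 have no background to stand beside. Among Mmp genes 8 of 15 were called higher in each line, among Adamts genes 8 of 13 in WT and 10 of 13 in PPARγ/+ cells. Among Adam genes none of 14 was called higher in either line. With 14 genes, 0 calls is near the share over all genes (8.94% and 9.11%). All 13 tested Adamts genes had positive differences in both lines.

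**Figure D2:**
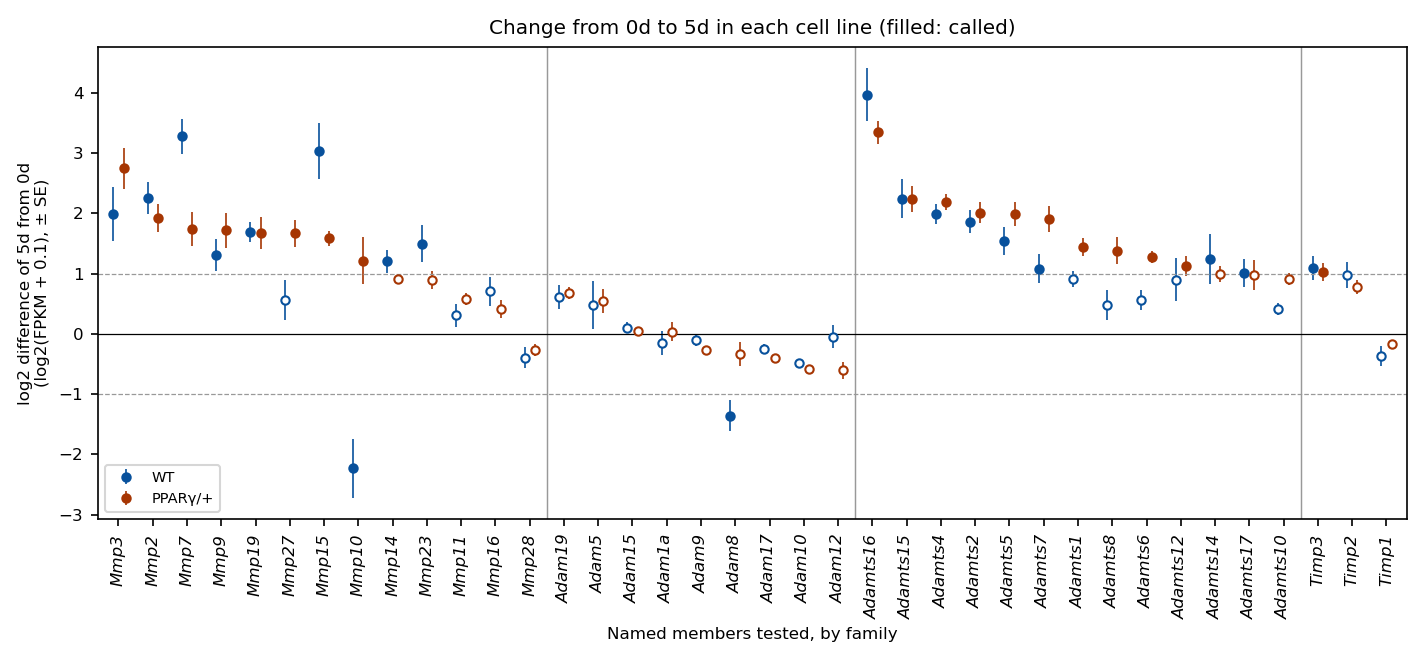
log2 difference of 5d from 0d (limma on log2(FPKM + 0.1), ± SE) for the named members tested, WT in blue and PPARγ/+ in red-brown; filled points were called and dashed lines mark 2-fold. Most Mmp and Adamts points lie above 0, and the Adam points other than *Adam8* in WT lie between the 2-fold lines. For *Mmp7*, *Mmp9*, *Mmp27*, *Adamts8* and *Adamts17*, which had groups of at most 3 fragments per library, the fitted size depends on the value added.

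The gelatinase *Mmp2* (ENSMUSG00000031740, chr8:92827291-92853420, GRCm38), which degrades denatured collagen and basement membrane collagen, was the most abundant peptidase. It had 115, 182 and 110 FPKM in WT_0d, 463, 744 and 730 in WT_5d, 135, 221 and 268 in PPARγ/+_0d and 758, 775 and 747 in PPARγ/+_5d. The libraries of 5d lay above those of 0d in both lines with no overlap. It rose 4.78-fold in WT (log2 2.26 ± 0.27 SE, limma adjusted p = 0.00155) and 3.80-fold in PPARγ/+ cells (1.93 ± 0.24, adjusted p = 0.000799). *Mmp9*, the other gelatinase, was near the limit of detection, with means of 0.00780, 0.173, 0.0699 and 0.438 FPKM in WT_0d, WT_5d, PPARγ/+_0d and PPARγ/+_5d. Since no WT_0d library had more than 3 fragments, its rise in WT was at least 4.55-fold, and in PPARγ/+ cells it rose by 1.72 ± 0.29 on the log2 scale (adjusted p = 0.00318).

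Of the membrane-type Mmps, which are anchored at the cell surface, *Mmp14* (ENSMUSG00000000957, chr14:54431612-54445364) was by far the highest. Its libraries had 101, 134 and 113 FPKM in WT_0d, 210, 275 and 321 in WT_5d, 130, 145 and 144 in PPARγ/+_0d and 273, 274 and 239 in PPARγ/+_5d, again with no overlap between the days. In WT cells it rose 2.30-fold (1.20 ± 0.18, adjusted p = 0.00378). In PPARγ/+ cells the difference was 1.88-fold (0.91 ± 0.08, adjusted p = 0.000224), under the 2-fold limit. The interaction of cell line and day, which tests whether the changes differ, was −0.29 ± 0.21 (adjusted p = 0.64).

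*Mmp15* had 1.04, 1.59 and 0.487 FPKM in WT_0d and 11.1, 10.7 and 5.09 in WT_5d, the lowest of them in replicate 3. In PPARγ/+ cells it had 1.5, 1.68 and 1.97 FPKM on 0d and 4.96, 5.13 and 5.90 on 5d. The rise was 8.23-fold in WT (3.04 ± 0.46, adjusted p = 0.00375) and 3-fold in PPARγ/+ cells (1.58 ± 0.13, adjusted p = 0.000147), and the interaction was not called (−1.46 ± 0.51, adjusted p = 0.271). *Mmp16* averaged 1.12, 1.90, 1.80 and 2.42 FPKM in the 4 groups, in the order WT_0d, WT_5d, PPARγ/+_0d and PPARγ/+_5d used from here on, and was not called in any comparison.

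Among the other secreted Mmps, *Mmp19* had 2.68, 3.88 and 2.72 FPKM in WT_0d and 9.05, 10.7 and 10.7 in WT_5d. In PPARγ/+ cells it had 2.16, 3.98 and 4.71 FPKM on 0d and 11.1, 10.8 and 11.8 on 5d. The days did not overlap in either line, and it rose by 1.70 ± 0.17 in WT and 1.68 ± 0.26 in PPARγ/+ cells (adjusted p = 0.000817 and 0.00222). Exons of *Tmem198b* on the other strand overlap 22.3% of its exons, and the library kit does not mark strand. *Mmp11*, whose known substrates are few and which a furin-type protease activates inside the cell, averaged 26.9, 34.0, 27.7 and 41.4 FPKM. Its difference in PPARγ/+ cells was 0.58 ± 0.10 (adjusted p = 0.00293), which is less than 2-fold, and in WT cells the days overlapped. *Mmp28* averaged 8.72, 6.74, 11.6 and 9.57 FPKM and was not called.

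*Mmp23* had 0.507, 0.644 and 0.960 FPKM in WT_0d and 1.44, 2.66 and 2.40 in WT_5d. In PPARγ/+ cells it had 1.59, 1.79 and 1.49 FPKM on 0d and 2.58, 3.62 and 3.17 on 5d. It rose 2.81-fold in WT (1.49 ± 0.31, adjusted p = 0.0112), while in PPARγ/+ cells the difference was 1.86-fold (0.89 ± 0.15, adjusted p = 0.00275). On 0d all PPARγ/+ libraries lay above all WT libraries.

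The chromosome 9 cluster holds 10 Mmp genes between bases 7272514 and 7699585, a span of 427072 bases, in the order *Mmp13*, *Mmp12*, *Mmp1b*, *Mmp3*, *Mmp1a*, *Mmp10*, *Mmp8*, *Mmp27*, *Mmp20* and *Mmp7*. None of them exceeded a mean of 1.33 FPKM, and the members called in a comparison are described below. The stromelysin *Mmp3*, which cuts many matrix proteins and activates other pro-Mmps, had 0.172, 0.353 and 0.048 FPKM in WT_0d, 1.33, 0.865 and 0.733 in WT_5d, 0.137, 0.0427 and 0.153 in PPARγ/+_0d and 0.912, 1.16 and 1.92 in PPARγ/+_5d. It rose in both lines, by 1.99 ± 0.45 in WT (adjusted p = 0.0152) and 2.75 ± 0.34 in PPARγ/+ cells (adjusted p = 0.000826), and its WT_0d libraries held only 6, 16 and 2 fragments.

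Its neighbour *Mmp10* (ENSMUSG00000047562, chr9:7502352-7510240), the second stromelysin, had 0.869, 1.38 and 0.427 FPKM in WT_0d and 0.205, 0.0904 and 0.0255 in WT_5d. In PPARγ/+ cells it had 0.262, 0.201 and 0.506 FPKM on 0d and 0.533, 1.38 and 0.782 on 5d. The libraries of 5d therefore lay below those of 0d in WT and above them in PPARγ/+ cells, with no overlap in either line. The log2 difference was −2.23 ± 0.49 in WT (adjusted p = 0.0136) and 1.22 ± 0.39 in PPARγ/+ cells (adjusted p = 0.0403). The PPARγ/+ call was lost without PPARγ/+_0d replicate 1 or 2 or PPARγ/+_5d replicate 2. *Mmp10* was the one member called in the interaction (3.45 ± 0.66, adjusted p = 0.0447), where 0.760% of all genes were called. That call did not hold under most other settings. With 1 added to the FPKM the interaction was 1.25 (adjusted p = 0.0698), with 0.01 added 4.59 (adjusted p = 0.0675), and without WT_0d replicate 2 it was 3.1 (adjusted p = 0.0987). The longest coding stretch that *Mmp10* and *Mmp3* share is 104 bases, so some reads may fit both genes.

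The matrilysin *Mmp7* (ENSMUSG00000018623, chr9:7692090-7699585) had 0, 0.0371 and 0.0404 FPKM in WT_0d and 0.809, 1.5 and 1.11 in WT_5d. It was at 0 in all PPARγ/+_0d libraries and had 0.361, 0.218 and 0.151 FPKM in PPARγ/+_5d, from 8, 5 and 3 fragments. Both 0d groups were at most at 1 fragment per library, so the rise was at least 9.07-fold in WT and at least 2.08-fold in PPARγ/+ cells (limma adjusted p = 0.000585 and 0.00257). On 5d the PPARγ/+ libraries all lay below the WT libraries. *Mmp27* was at 0 in both 0d groups and averaged 0.0554 FPKM in WT_5d and 0.221 in PPARγ/+_5d, a rise of at least 3.90-fold in PPARγ/+ cells (adjusted p = 0.00121). The overlap of *Mmp7* with exons of AV064505 on the other strand is 11.5% of its exons.

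**Figure D3:**
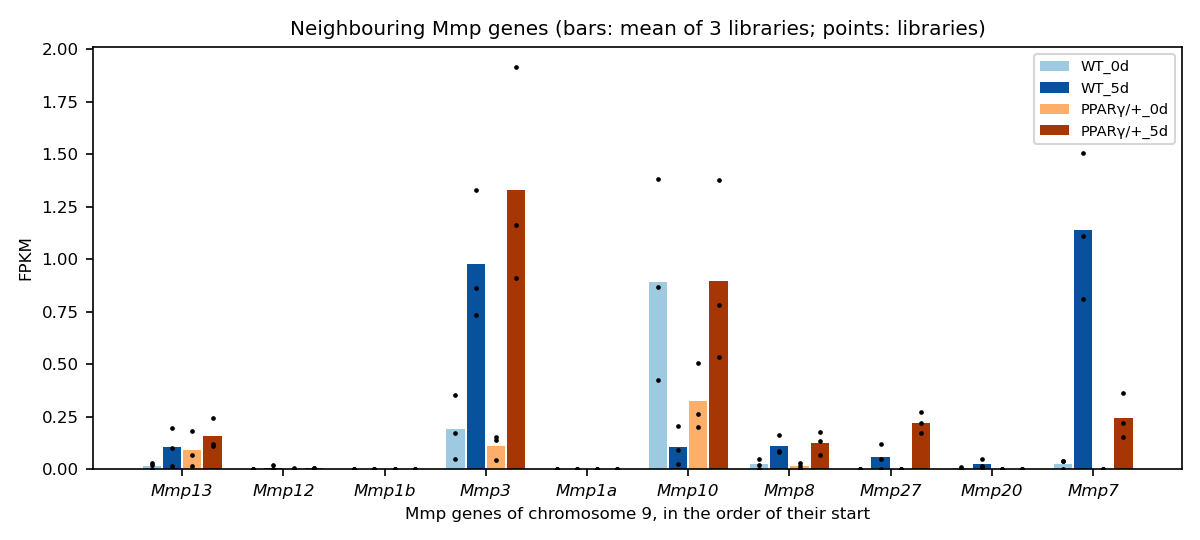
FPKM of the 10 Mmp genes of the chromosome 9 cluster in their order along the chromosome; bars are means of 3 libraries, points libraries. *Mmp3* and *Mmp7* are higher on 5d in both lines, whereas *Mmp10* is lower on 5d in WT and higher on 5d in PPARγ/+ cells.

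The stretches just upstream of these genes are shown because neighbours moved in different ways, and because AP-1, the Fos and Jun dimer, is a known regulator of stromelysin and collagenase promoters. The letters TGANTCA were searched on both strands of the 110 bases before the RefSeq start of each gene (GRCm38.p6). With the start nearest the annotated start of each gene, they were found in 7 of the 10 genes of the cluster, 35 to 95 bases before it. Over all 12 starts listed for these genes, 8 starts of 8 genes had them, the added one being a second start of *Mmp12*, beside 1011 of all 32851 promoters (3.08%), in which further starts of a gene are also counted. Capitals mark the match, and all 4 stretches are on the plus strand.
Mmp3: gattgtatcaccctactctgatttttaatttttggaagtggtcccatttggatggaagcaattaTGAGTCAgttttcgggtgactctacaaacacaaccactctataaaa
Mmp10: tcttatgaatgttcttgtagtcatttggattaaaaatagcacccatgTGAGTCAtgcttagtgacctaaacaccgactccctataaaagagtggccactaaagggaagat
Mmp27: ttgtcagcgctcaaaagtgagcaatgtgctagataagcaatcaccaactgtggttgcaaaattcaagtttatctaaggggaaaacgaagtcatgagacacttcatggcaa
Mmp7: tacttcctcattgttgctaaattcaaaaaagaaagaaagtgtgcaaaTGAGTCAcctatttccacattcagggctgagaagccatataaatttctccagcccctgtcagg
The places are chr9:7445712-7445821 for *Mmp3*, chr9:7502232-7502341 for *Mmp10*, chr9:7571286-7571395 for *Mmp27* and chr9:7691980-7692089 for *Mmp7*. The match began 46 bases before the start in *Mmp3* and 63 bases before it in *Mmp10* and *Mmp7*, while *Mmp27* had none in this stretch. The same letters stood before *Mmp3* and *Mmp7*, which rose in both lines, and before *Mmp10*, which fell in WT and rose in PPARγ/+ cells. *Mmp27*, without them in this stretch, rose in PPARγ/+ cells. Promoter sequences were at hand for 49 of the 79 members, with 54 starts, and the other members were not searched. Over the full windows from 250 bases before to 50 bases after the start, TGANTCA was found in 13 of these 54 promoters. The 13 include the 8 starts of the cluster, and 7.81% of all promoters held the letters. The DR1 repeat (AGGTCA and a second AGGTCA after 1 base of any kind), the type of element that PPARγ binds with RXR, was found in 0 of 54 and in 0.0396% of all. The muscle E box CAGCTG was found in 9 of 54 and in 16.3% of all. These matches describe letters in short windows and were not tested.

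Of the 14 Adam genes tested, 1 was called in a comparison of the days, where 16.5% of all genes were called in WT and 15.2% in PPARγ/+ cells. The 4 highest were *Adam9*, *Adam10*, *Adam15* and *Adam17*, which made up 82.0–87.9% of the summed Adam FPKM in the group means. *Adam10*, a sheddase of Notch and cadherins, had 22, 24.7 and 23 FPKM in WT_0d, 16.1, 16.5 and 17.1 in WT_5d, 25.1, 23.5 and 25.6 in PPARγ/+_0d and 16.6, 16.7 and 16.1 in PPARγ/+_5d. The days did not overlap, and the difference was small but precise, −0.48 ± 0.07 in WT (adjusted p = 0.0035) and −0.58 ± 0.05 in PPARγ/+ cells (adjusted p = 0.000223), both under 2-fold. *Adam17*, which sheds TNF and ligands of the EGF receptor, averaged 12.7, 10.7, 13.8 and 10.4 FPKM, with differences of −0.25 ± 0.08 and −0.40 ± 0.07 (adjusted p = 0.0472 and 0.00422). *Adam9* averaged 55.0, 50.9, 55.2 and 46.1 FPKM, and its difference in PPARγ/+ cells was −0.26 ± 0.04 (adjusted p = 0.00281). *Adam15* averaged 11.3, 12.2, 13.2 and 13.6 FPKM and did not pass the p threshold, and 20.6% of its exons are overlapped by 4731419I09Rik on the other strand.

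*Adam12* and *Adam19*, are both known from myoblast fusion and growth factor shedding. *Adam12* averaged 2.70, 2.60, 4.51 and 2.91 FPKM, with a difference of −0.60 ± 0.14 in PPARγ/+ cells (adjusted p = 0.0126) that was under 2-fold. In WT cells its difference was −0.05 ± 0.20 (adjusted p = 0.881), which turned to 0.08 under median-ratio scaling. *Adam19* averaged 8.24, 12.7, 5.25 and 8.48 FPKM, with differences of 0.61 ± 0.19 and 0.69 ± 0.10 (adjusted p = 0.0482 and 0.00166). *Adam8*, a sheddase best known in leukocytes, was the one Adam gene called. It had 4.17, 5.74 and 4.34 FPKM in WT_0d, 1.99, 2.30 and 1.21 in WT_5d, 2.62, 1.55 and 2.25 in PPARγ/+_0d and 1.62, 1.77 and 1.52 in PPARγ/+_5d. WT_0d stood above the other groups, and the gene fell by 1.36 ± 0.26 on the log2 scale in WT cells (adjusted p = 0.00805), while in PPARγ/+ cells the days overlapped (−0.34 ± 0.20, adjusted p = 0.204). The interaction was 1.02 ± 0.34 (adjusted p = 0.242). *Cd68* was the leukocyte marker with a clear level and the others were at or near 0, and which cells held the *Adam8* RNA was not tested. *Adam1a* and *Adam5* stayed at or under a mean of 1.11 FPKM. On the same strand, 63.7% of the *Adam1a* exons are shared with Gm42878 and 24.0% with *Mapkapk5*. The longest coding stretch that *Adam1a* and *Adam1b* share is 1082 bases.

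Most Adamts genes tested were called higher on 5d in at least 1 line. The procollagen N-peptidases, which trim fibrillar procollagens, were *Adamts2* and *Adamts14* (*Adamts3* was not tested, at a mean of at most 0.102 FPKM). *Adamts2* had 4.11, 5.72 and 3.96 FPKM in WT_0d, 14.5, 20.5 and 15.8 in WT_5d, 3.16, 4.35 and 5.08 in PPARγ/+_0d and 17.6, 17.9 and 15.4 in PPARγ/+_5d. It rose 3.63-fold in WT (1.86 ± 0.19, adjusted p = 0.000891) and 4.04-fold in PPARγ/+ cells (2.01 ± 0.17, adjusted p = 0.000176). *Adamts14* had 4.38, 5.56 and 4.95 FPKM in WT_0d, and 18.6, 15.2 and 5.90 in WT_5d, the last in replicate 3, near the level of 0d. It was called in WT (1.25 ± 0.41, limma unadjusted p = 0.0215 and adjusted p = 0.056). The call was lost without WT_0d replicate 1 (1.16), WT_0d replicate 3 (1.25), WT_5d replicate 1 (0.92) or WT_5d replicate 2 (1.07). In PPARγ/+ cells it had 2.69, 2.60 and 3.41 FPKM on 0d and 5.29, 5.76 and 6.58 on 5d, a difference of 1.0 ± 0.13 (adjusted p = 0.0011) that lay just under 2-fold.

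The proteoglycanases *Adamts1*, *Adamts4*, *Adamts5*, *Adamts8* and *Adamts15*, which cut versican and aggrecan, all had positive differences. *Adamts4* had 2.18, 3 and 2.27 FPKM in WT_0d, 10.5, 11.5 and 8.44 in WT_5d, 1.46, 1.51 and 2.02 in PPARγ/+_0d and 7.58, 8.12 and 7.83 in PPARγ/+_5d. It rose 3.97-fold in WT and 4.55-fold in PPARγ/+ cells (limma adjusted p = 0.000511 and 5.53e-05). *Adamts5* had 1.85, 2.57 and 1.95 FPKM in WT_0d, 8.61, 5.10 and 5.72 in WT_5d, 1.04, 1.21 and 1.84 in PPARγ/+_0d and 6.19, 5.62 and 4.97 in PPARγ/+_5d, and it rose 2.91-fold and 3.97-fold (adjusted p = 0.00335 and 0.000388). Neither gene overlapped between the days in either line.

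*Adamts1* had 4.81, 5.85 and 5.49 FPKM in WT_0d, 11.7, 10.4 and 8.65 in WT_5d, 3.05, 4.17 and 4.51 in PPARγ/+_0d and 11.1, 10.2 and 10.7 in PPARγ/+_5d. It rose 2.71-fold in PPARγ/+ cells (1.44 ± 0.14, adjusted p = 0.000334), and in WT cells the difference was 1.88-fold (0.91 ± 0.14, adjusted p = 0.00367). *Adamts15* was low, with means of 0.0671, 0.733, 0.0650 and 0.682 FPKM, and it rose by 2.25 ± 0.32 and 2.24 ± 0.21 in WT and PPARγ/+ cells (adjusted p = 0.00302 and 0.000283). *Adamts8*, whose coding sequence did not hold the zinc site codons as searched, averaged 0.190 FPKM in PPARγ/+_5d and rose at least 6.99-fold there (adjusted p = 0.00231). Of the 4 lectican substrates listed, *Vcan* (versican) was the one tested, at means of 24.4, 19.4, 12.4 and 11.8 FPKM, and it was not called.

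*Adamts16* (chr13:70727802-70841811) showed the largest fold change of the members that were above the floor of 3 fragments in each group. It had 0.0830, 0.0812 and 0.0632 FPKM in WT_0d and 0.0779, 0.0954 and 0.0804 in PPARγ/+_0d, from 10 to 17 fragments. On 5d it had 3.95, 3.67 and 1.25 FPKM in WT and 2.14, 1.79 and 1.46 in PPARγ/+ cells, the lowest again in WT_5d replicate 3. The rise was 15.6-fold in WT (3.97 ± 0.44, adjusted p = 0.00119) and 10.2-fold in PPARγ/+ cells (3.35 ± 0.19, adjusted p = 4.96e-05). The interaction was not called (−0.62 ± 0.50, adjusted p = 0.684).

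*Adamts7*, which cuts the matrix protein COMP, had 6.33, 10.5 and 7.13 FPKM in WT_0d, 20, 17.7 and 13 in WT_5d, 2.55, 4.35 and 4.51 in PPARγ/+_0d and 13.2, 14.1 and 15.2 in PPARγ/+_5d. It rose 2.12-fold in WT (adjusted p = 0.013) and 3.76-fold in PPARγ/+ cells (adjusted p = 0.000515), and the WT value fell under 2-fold without WT_0d replicate 1 (0.94 on the log2 scale) or WT_5d replicate 1 (0.95). *Adamts6* had 3.01, 3.05 and 2.87 FPKM in WT_0d, 5.67, 4.17 and 3.68 in WT_5d, 1.18, 1.36 and 1.44 in PPARγ/+_0d and 3.32, 3.41 and 3.31 in PPARγ/+_5d. It rose 2.42-fold in PPARγ/+ cells (1.28 ± 0.11, adjusted p = 0.000178) and differed 1.47-fold in WT (0.56 ± 0.17, adjusted p = 0.0429). For both genes PPARγ/+_0d was the lowest group.

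*Adamts12* had 0.562, 0.477 and 0.575 FPKM in WT_0d, 1.89, 0.998 and 0.662 in WT_5d, 0.283, 0.326 and 0.345 in PPARγ/+_0d and 0.890, 0.709 and 0.846 in PPARγ/+_5d, and it rose 2.18-fold in PPARγ/+ cells (adjusted p = 0.00188). *Adamts10*, which binds fibrillin microfibrils, averaged 4.6, 6.18, 4.68 and 8.84 FPKM, with differences of 0.42 ± 0.10 and 0.91 ± 0.10 (adjusted p = 0.0168 and 0.000444), both under 2-fold. *Adamts17* had group means of at most 0.155 FPKM. It was called in WT (1.01 ± 0.24, adjusted p = 0.0183), a call lost without WT_0d replicate 1 (0.94) or WT_5d replicate 1 (0.87), and in PPARγ/+ cells, where the 0d libraries had at most 1 fragment, 5d was at least 6.23-fold higher, although the fitted difference of 0.98 was not called.

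The inhibitors *Timp1* and *Timp2* were among the 4 most abundant members. *Timp2* (chr11:118301069-118355740) had 213, 329 and 210 FPKM in WT_0d, 421, 472 and 573 in WT_5d, 288, 268 and 353 in PPARγ/+_0d and 510, 535 and 505 in PPARγ/+_5d. The days did not overlap, with differences of 1.98-fold in WT (0.98 ± 0.22, adjusted p = 0.0139) and 1.71-fold in PPARγ/+ cells (0.78 ± 0.11, adjusted p = 0.00152), both under the 2-fold limit. Median-ratio scaling took the WT value to 1.11, which is past it. *Timp3* (chr10:86300372-86349506), which binds to the matrix and is the Timp known to inhibit Adam17 and the proteoglycanases, had 19.6, 32.1 and 21.7 FPKM in WT_0d, 60.3, 49.5 and 44.8 in WT_5d, 23.5, 27.2 and 35.2 in PPARγ/+_0d and 62.6, 60.1 and 51.2 in PPARγ/+_5d. It was called in both lines, at 2.13-fold (1.09 ± 0.21, adjusted p = 0.00804) and 2.04-fold (1.03 ± 0.15, adjusted p = 0.00178). These calls lie at the 2-fold limit and were lost without WT_0d replicate 1 (0.95) or WT_5d replicate 1 (0.97) in WT, and without PPARγ/+_0d replicate 1 (0.90), PPARγ/+_5d replicate 1 (0.97) or PPARγ/+_5d replicate 2 (1.0) in PPARγ/+ cells. *Syn3*, the host gene of *Timp3*, overlaps 21.3% of its exons on the other strand.

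*Timp1*, on chromosome X, had 211, 277 and 201 FPKM in WT_0d, 202, 182 and 150 in WT_5d, 146, 155 and 164 in PPARγ/+_0d and 134, 146 and 132 in PPARγ/+_5d. It was the one tested Timp with negative differences, −0.37 ± 0.17 in WT (adjusted p = 0.139) and −0.17 ± 0.07 in PPARγ/+ cells (adjusted p = 0.08), and the days overlapped in both lines. The share of *Timp1* in the summed Timp FPKM was 45.8% ± 2.15 (SD, n = 3) in WT_0d, 25.0% ± 5.08 in WT_5d, 32.0% ± 2.40 in PPARγ/+_0d and 19.3% ± 0.363 in PPARγ/+_5d. *Timp4* was near the limit of detection, with 14, 17 and 7 fragments in the WT_5d libraries and at most 8 in all others, and was not tested.

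FPKM is per length and can be summed and compared between genes. The summed Mmp FPKM was 294 ± 56.7 (SD, n = 3) in WT_0d, 981 ± 218 in WT_5d, 397 ± 77.9 in PPARγ/+_0d and 1099 ± 26.9 in PPARγ/+_5d, and *Mmp2* and *Mmp14* made up 85.1–93.1% of it in the group means. The summed Timp FPKM was 505 ± 116, 718 ± 44.0, 487 ± 56.7 and 712 ± 27.1. The summed Adamts FPKM was 35.9 ± 5.06, 89.7 ± 17.2, 24.5 ± 4.33 and 77.0 ± 0.573, and the Adam sum was 120 ± 8.56, 110 ± 1.34, 122 ± 4.97 and 103 ± 0.811. The Mmp and Adamts sums were thus 2.5 to 3.33 times as high on 5d as on 0d in either line, the Timp sum 1.42 and 1.46 times as high.

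The ratio of inhibitor to peptidase RNA was lower on 5d. The Timp to Mmp ratio was 1.70, 1.78 and 1.65 in the WT_0d libraries and 0.935, 0.648 and 0.681 in WT_5d. In PPARγ/+ cells it was 1.47, 1.08 and 1.20 on 0d and 0.640, 0.660 and 0.643 on 5d. The days did not overlap in either line, and an exact permutation test of 3 libraries against 3 gave p = 0.1 (two-sided), the smallest it can give. On 0d the PPARγ/+ libraries lay below the WT libraries (exact permutation p = 0.1), and on 5d the lines overlapped (p = 0.2). The *Timp2* to *Mmp2* ratio had means of 1.86, 0.776, 1.56 and 0.679 and did not overlap between the days either. The *Timp2* to *Timp1* ratio was 1.08 ± 0.0946, 2.83 ± 0.894, 1.95 ± 0.216 and 3.76 ± 0.0849, with no overlap between the days or, on 0d, between the lines. *Timp3* to summed Adamts was 0.673, 0.580, 1.17 and 0.753, and there the WT days overlapped. In all, 32 comparisons of sums and ratios were made by exact permutation tests, which cannot pass a threshold of 0.05 with 3 libraries a group.

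**Figure D4:**
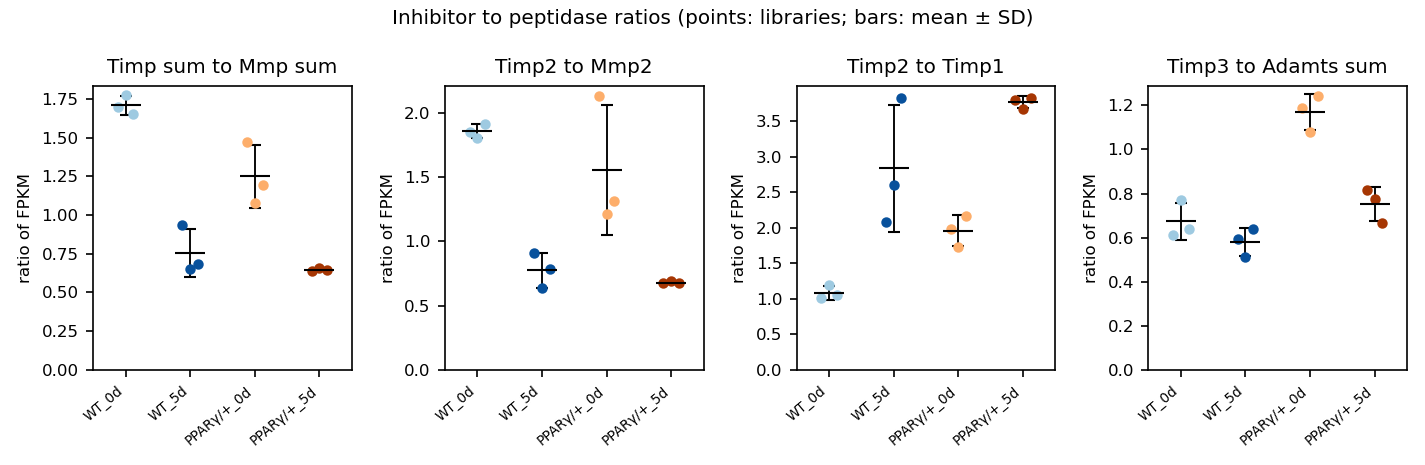
Ratios of FPKM in the 4 groups, with points for libraries and bars for mean ± SD; the axes start at 0. The Timp to Mmp and Timp2 to Mmp2 ratios are lower on 5d than on 0d in both lines without overlap, and the Timp2 to Timp1 ratio is higher.

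The second question is where the lines differed on the same day. On 0d, 4 of the 45 members were called between PPARγ/+ and WT cells at a limma adjusted p of at most 0.05 and at least 2-fold, against 1.96% of all genes (0.571% higher and 1.39% lower). *Mmp23* was higher in PPARγ/+ cells (2.20-fold, 1.14 ± 0.25, adjusted p = 0.0243). *Adam8* (2.19-fold, −1.13 ± 0.24, adjusted p = 0.0205), *Adamts6* (2.16-fold, −1.11 ± 0.14, adjusted p = 0.00219) and *Adamts7* (2.08-fold, −1.06 ± 0.24, adjusted p = 0.0279) were lower. The library values of the 4 are given above. They did not overlap between the lines on 0d, which adds nothing to calls made on the same libraries. When only the 6 libraries of 0d were fitted, *Adamts6* was the only one of them that remained called, and it alone kept its call when each library was left out in turn. *Mmp23* lost it without WT_0d replicate 1 or 2 or any PPARγ/+_0d library, *Adam8* without WT_0d replicate 2 or 3 or PPARγ/+_0d replicate 2 or 3, and *Adamts7* without WT_0d replicate 2 or 3 or PPARγ/+_0d replicate 1 or 2 (adjusted p from 0.0514 to 0.0973). *Timp1* (−0.56 ± 0.13, adjusted p = 0.0358), *Adam12* (0.72 ± 0.18, adjusted p = 0.0396) and *Adam19* (−0.63 ± 0.16, adjusted p = 0.0472) passed the adjusted p but were under 2-fold. The median over the 13 Adamts genes tested was −0.47 on 0d, with 3 positive, beside 0.02 over all genes. The muscle markers *Cdh15* and *Myf5* were lower in PPARγ/+_0d as well (−2.15 ± 0.37 and −1.58 ± 0.19, adjusted p = 0.00877 and 0.00165), and the part of muscle cell state in the Adamts values was not tested.

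On 5d, 2 members were called, against 1.10% of all genes (0.571% higher and 0.533% lower). *Mmp10* was higher in PPARγ/+ cells (4.84-fold, 2.27 ± 0.47, adjusted p = 0.0371), and *Mmp7* was lower (3.63-fold on the log2(FPKM + 0.1) scale, −1.86 ± 0.29, adjusted p = 0.0102). Both rest on few fragments, since *Mmp10* had 9, 3 and 1 in WT_5d and *Mmp7* 8, 5 and 3 in PPARγ/+_5d. The *Mmp10* call was kept without WT_0d replicate 2 or 3, WT_5d replicate 1 or 3 or PPARγ/+_0d replicate 3 and lost without any of the other 7 libraries (adjusted p from 0.0535 to 0.14), and the *Mmp7* call was lost without WT_5d replicate 2 (adjusted p = 0.0532) or PPARγ/+_5d replicate 3 (adjusted p = 0.0538). *Adamts10* passed the adjusted p at 1.42-fold (0.51 ± 0.10, adjusted p = 0.0256). Without WT_5d replicate 3, 5 members were called, the added ones being *Mmp27* (1.39), *Adamts14* (−1.51) and *Adamts16* (−1.06), and 4.42% of all genes were called, so that library weighs on this comparison. *Mmp2*, *Mmp14*, *Timp2* and *Timp3* differed by 0.27, −0.02, 0.09 and 0.17 with SE of 0.27, 0.15, 0.18 and 0.19, and none was called.

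**Figure D5:**
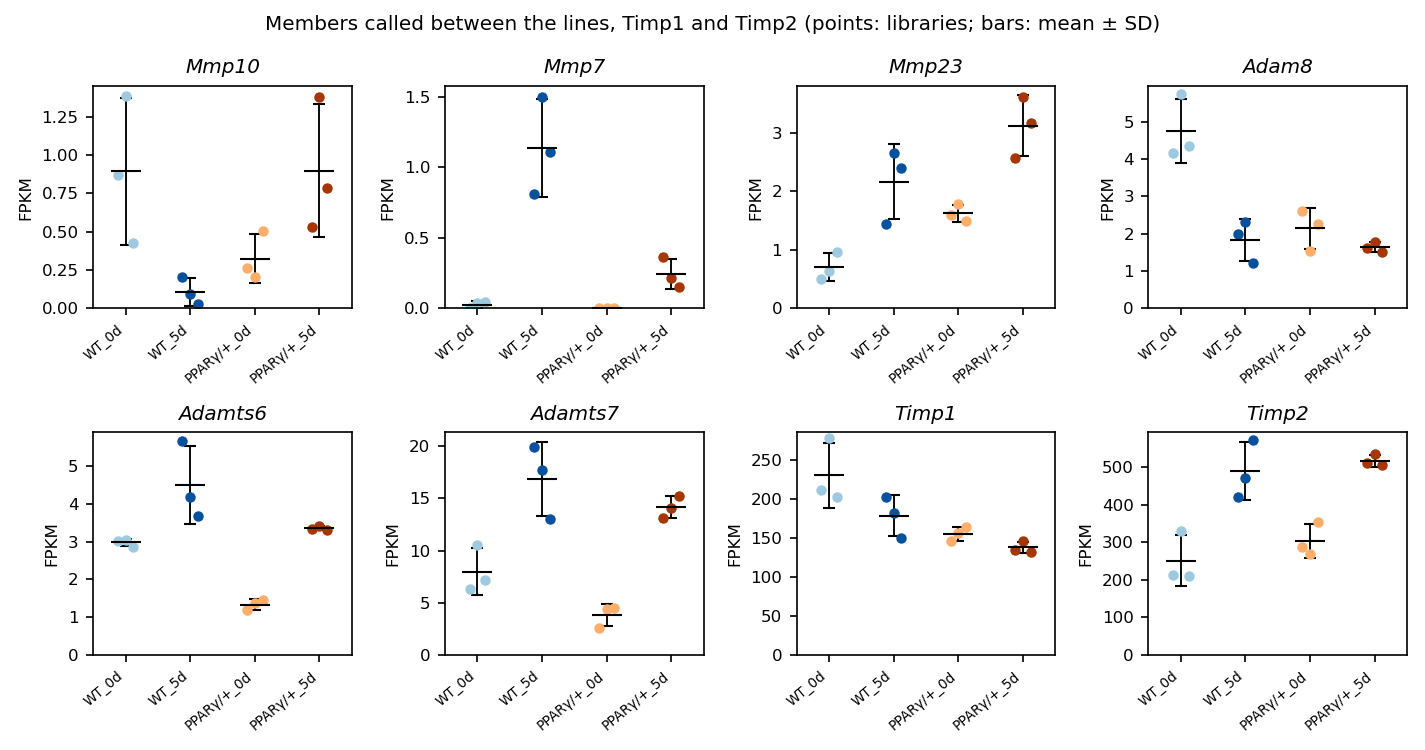
FPKM in each library (points) with mean ± SD (bars) for the 6 members called between the lines on 0d or 5d and for *Timp1* and *Timp2*; axes start at 0. *Adam8*, *Adamts6* and *Adamts7* are lower and *Mmp23* is higher in PPARγ/+_0d than in WT_0d, and on 5d *Mmp10* is higher and *Mmp7* lower in PPARγ/+ cells.

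Between the days, 10 members were called in WT cells alone or in PPARγ/+ cells alone. Those in WT were *Mmp14*, *Mmp23*, *Adam8*, *Adamts14* and *Adamts17*, and those in PPARγ/+ cells were *Mmp27*, *Adamts1*, *Adamts6*, *Adamts8* and *Adamts12*. None of the 10 was called in the interaction test. Their changes are therefore not shown to differ between the lines. Under median-ratio scaling several of them passed 2-fold in the other line too, namely *Mmp14* (1.04), *Mmp23* (1.02), *Adamts14* (1.13) and *Adamts17* (1.01) in PPARγ/+ cells and *Adamts1* (1.04) and *Adamts12* (1.01) in WT cells, and *Adamts10* (1.04) passed it in PPARγ/+ cells.

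The other genes around this system were taken from lists written for it. Their counts stand beside 8.94% higher and 7.53% lower among all genes in WT cells and 9.11% and 6.06% in PPARγ/+ cells. Among the genes reported here from the plasminogen activation list, whose product plasmin activates several pro-Mmps, *Plaur* was called in both lines, *Serpinb2* in WT cells, and *Plau* and *Plat* in PPARγ/+ cells. *Plaur*, the urokinase receptor, averaged 24.2, 3.82, 13.8 and 3.58 FPKM and fell by 2.64 in WT and by 1.92 in PPARγ/+ cells (limma adjusted p = 0.00013 and 6.32e-05). *Serpinb2*, an inhibitor of plasminogen activators, averaged 1.94, 0.127, 0.548 and 0.306 FPKM and fell by 3.16 in WT (adjusted p = 0.000875) and was called in the interaction (2.51 ± 0.41, adjusted p = 0.0227) and as lower in PPARγ/+_0d (−1.64 ± 0.29, adjusted p = 0.00951). The activators *Plau* and *Plat* rose in PPARγ/+ cells, by 1.03 ± 0.10 and 1.67 ± 0.13 (adjusted p = 0.000324 and 0.000141), and *Plau* was lower in PPARγ/+_0d than in WT_0d (−1.77 ± 0.27, adjusted p = 0.0054). *Plg* itself averaged at most 0.0315 FPKM.

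Of the 9 listed ligands that Adams release, namely *Tnf* and members of the EGF family, 8 were tested. In WT cells 4 fell, namely *Areg* (by 3.03), *Tgfa* (by 1.26), *Ereg* (by 1.16) and *Btc* (by 1.01), and in PPARγ/+ cells none was called (7.53% and 6.06% of all genes were called lower). With 8 genes, 0 calls is near the share over all genes. The median difference was −0.45 in WT and −0.06 in PPARγ/+ cells. *Areg*, amphiregulin, averaged 6.1, 0.659, 3.6 and 2.22 FPKM and was called in the interaction (2.35 ± 0.28, limma adjusted p = 0.00844). On 5d *Areg* and *Btc* were higher in PPARγ/+ cells (1.60 ± 0.20 and 1.16 ± 0.18, adjusted p = 0.00307 and 0.00867), and on 0d *Hbegf* was lower (−1.06 ± 0.21, adjusted p = 0.017).

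Of the 13 activators and chaperones of these enzymes, 11 were tested and 2 were called higher in each line (8.94% and 9.11% of all genes were), with medians of 0.29 in WT and 0.46 in PPARγ/+ cells. *Pcsk6*, a proprotein convertase, averaged 0.585, 3.88, 1.85 and 4.72 FPKM and rose by 2.52 ± 0.51 and 1.32 ± 0.15 (adjusted p = 0.0106 and 0.000641), and it was higher in PPARγ/+_0d than in WT_0d (1.61 ± 0.40, adjusted p = 0.0417). *Tspan33*, at a mean of at most 0.376 FPKM, was the other gene called in WT cells. *Tspan15*, a tetraspanin that escorts Adam10, averaged 14.2, 14.9, 7.87 and 15.9 FPKM, rose in PPARγ/+ cells (1.0 ± 0.08, adjusted p = 0.00012) and was called in the interaction (0.93 ± 0.15, adjusted p = 0.0231). *Furin*, *Rhbdf1* and *Bsg* were not called. Among the 7 other inhibitors 3 were tested, with medians of 0.91 in WT and 0.54 in PPARγ/+ cells. *Reck*, a membrane-anchored Mmp inhibitor, averaged 2.46, 4.70, 3.91 and 5.73 FPKM with differences of 0.91 ± 0.15 and 0.54 ± 0.09, under 2-fold. *Cst3*, a cysteine protease inhibitor, rose from 148 to 600 FPKM in WT and from 219 to 646 in PPARγ/+ cells (adjusted p = 0.00575 and 0.000447), and *Spock2* was higher in PPARγ/+_0d (1.02 ± 0.23, adjusted p = 0.0254).

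Of the 7 Adamts-like genes, which lack the catalytic domain and bind microfibrils, 6 were tested and 2 rose in both lines, with medians of 0.70 and 0.80. *Adamtsl2* averaged 0.0464, 3.63, 0.0418 and 2.14 FPKM and rose by 4.46 ± 0.59 and 4.01 ± 0.23 (limma adjusted p = 0.0023 and 4.8e-05). *Adamtsl1* averaged 0.939, 4.95, 1.89 and 8.71 FPKM and rose by 2.31 ± 0.21 and 2.15 ± 0.09 (adjusted p = 0.00063 and 2.23e-05). Of the 10 astacin and neprilysin metallopeptidases 8 were tested, with medians of 0.68 and 0.60, and *Mme* in PPARγ/+ cells was the one call (1.08 ± 0.22, adjusted p = 0.00684), at a mean of 0.118 FPKM. *Bmp1*, the procollagen C-peptidase, averaged 69.8, 105, 57.3 and 98.3 FPKM with differences of 0.59 ± 0.08 and 0.78 ± 0.08 (adjusted p = 0.00259 and 0.0004), under 2-fold.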

How the data were processed

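RNA of 12 C2C12 libraries was sequenced in pairs (TruSeq kit, which does not mark strand). The FPKM deposited by the authors came from reads trimmed in Trim Galore, mapped by STAR and assigned to genes by HTSeq. The study's methods name GRCm38 and the labels mm9; exonic lengths of GRCm38 gave whole fragments for 78.2% of the 27138 expressed genes. A second deposited table holds log2(FPKM + 1) of the same values and was not analysed further. Per-sample columns not used numbered 0.

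Fragments (15557950 to 22013354 per library) were recovered from FPKM, exonic length and inferred depth, with whole numbers taken within 0.01. For 5914 genes, 22 members among them (including *Mmp2*, *Mmp3*, *Mmp10* and *Mmp14*), the annotated length did not give whole fragments, and the length that did was inferred from the values. Where no library of a group had more than 3 fragments, a fold is given as a lower bound against 3 fragments per library.

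limma 3.58.1 (empirical Bayes with a trend, R 4.3.3) was run on log2(FPKM + 0.1) of the 18023 genes with at least 0.1 FPKM in at least 3 libraries. Fold changes are on that scale, which understates those of low genes. The days were compared within each line on its 6 libraries, and the interaction and the lines within each day on all 12. Adjusted p-values are Benjamini-Hochberg over all genes tested. The code was tested on simulated data.

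Named were all Timps, members with a mean of at least 1 FPKM in some group and members called in any comparison. One gene of the plasminogen activation list is not reported here. Members and lists were chosen with earlier results of these data known. Zinc sites were searched in coding sequences because protein sequences were not used here. Alternatives were 1 or 0.01 added, other filters, median-ratio scaling, adjusted p-values, a replicate block, other libraries in the fit, each library left out, and voom on the recovered fragments, the last chosen after seeing the data. Python 3.11.15, numpy 2.4.6, pandas 2.3.3 and matplotlib 3.10.9 were used.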

Additional observations from a re-analysis of the deposited data

Results flagged for a closer look

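*Mmp10* was flagged because the difference between 5d and 0d was itself tested between the lines and passed. The log2 change in PPARγ/+ cells exceeded that in WT cells by 3.45 ± 0.66 (limma on 12 libraries, adjusted p = 0.0447). The range over the alternatives that refitted it was 1.25 with 1 added to 4.59 with 0.01 added, always in the same direction. Its group means were 0.893 ± 0.478, 0.107 ± 0.0911, 0.323 ± 0.161 and 0.898 ± 0.435 FPKM (SD, n = 3) in WT_0d, WT_5d, PPARγ/+_0d and PPARγ/+_5d.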

How the results depend on the processing

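Over 190 named results and their alternatives (3342 values), 3229 kept their side of the threshold, 83 lost a call, 30 gained one and 0 calls changed sign. The 3229 include results called neither in the main fit nor in the alternative. Genes removed by a filter, such as *Mmp7* and *Mmp10* at 1 FPKM or more, are not among the values. With 1 added, 11 members were called in PPARγ/+ cells, beside 6.89% of all genes. At 1 FPKM or more, 12 of the 30 members tested were called there, beside 14.7% of all genes. Both counts were below the 19 of the main fit, where 15.2% of all genes were called. In the interaction limma called 0 members with 0.01 added (8 at an unadjusted p of at most 0.05), without a filter (14), at 1 FPKM or more (7), under median-ratio scaling (10) and by voom (11). Those settings called 0.427% to 0.838% of all genes. With 1 added the only call was *Mmp7* (−0.74, limma adjusted p = 0.0494), beside 0.743% of all genes. Between the lines on 0d limma called 0 with 1 added (14 unadjusted) and 1 on the 6 libraries of the day, beside 0.666% and 1.59% of all genes. On 5d it called 0 with 1 added (15 unadjusted), 0 at 1 FPKM or more (8), 0 on the 6 libraries of the day (11), and 1 with 0.01 added, without a filter and by voom. Those settings called 0.155% to 1.33% of all genes. The cause of these changes in the counts was not tested. Leaving out each library in turn gave 15 to 22 calls in WT, 17 to 21 in PPARγ/+ cells, 0 to 2 in the interaction, 1 to 4 on 0d and 0 to 5 on 5d. In that order, the shares of all genes called were 15.3% to 17.0%, 14.1% to 15.7%, 0.233% to 2.92%, 0.999% to 2.72% and 0.433% to 4.42%. The *Mmp10* interaction was kept without WT_0d replicate 3, WT_5d replicate 1 or WT_5d replicate 3 and lost without any other library (adjusted p 0.0534 to 0.124). Median-ratio scaling turned the median of the Adam genes in WT from −0.08 to 0.05.

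Replicate numbers are shared by the groups. Same-numbered libraries had r from −0.07 to 0.08 (18 pairs), and different-numbered ones from −0.12 to 0.10. In 17 of 36 library and group pairs a library correlated best with its own number, where 1 in 3 would do so without pairing. These small correlations cannot decide whether the numbers mark paired cultures. With the replicate block the counts were 19 in WT, 19 in PPARγ/+ cells, 0 in the interaction (10 at an unadjusted p of at most 0.05), 4 on 0d and 1 on 5d. The shares of all genes called were 16.8%, 15.3%, 0.338%, 1.73% and 0.943% in that order.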
